A study of Homo sapiens with 24 samples.

Results

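The genes described here are 19 cytosolic aminoacyl-tRNA synthetase genes and 22 genes that are targets or partners of the transcription factor ATF4, 41 in all. They were taken by symbol from the 38849 genes of a series-wide table of normalized counts. All 41 had a mean of at least 10 over the libraries, the level needed to enter the tests, as did 12096 genes in all. They fall into 4 classes: 19 cytosolic tRNA synthetases, 6 transcription factors, 5 genes of stress feedback and signalling, and 11 enzymes of amino acid and one-carbon metabolism.

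Aminoacyl-tRNA synthetases load each amino acid onto its tRNA, and a symbol such as GARS1 names the enzyme for 1 amino acid, here glycine. When amino acids run short, or unfolded protein collects in the endoplasmic reticulum, stress kinases phosphorylate the translation factor eIF2, which lowers protein synthesis in general and raises translation of ATF4 mRNA. ATF4 then binds C/EBP-ATF response elements, DNA sites bound by C/EBP and ATF family dimers, and raises transcription of synthetases, of enzymes that make asparagine, serine, glycine and proline, and of its own feedback regulators. Because much of the control of ATF4 is at translation, its mRNA level is not a measure of its activity.

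HMLE is an immortalized human mammary epithelial cell line. The study compared HMLE cells that carry LacZ, a bacterial gene used as control, with HMLE cells that over-express RBMS3, an RNA-binding protein, and asked which transcripts RBMS3 stabilizes. Both lines received actinomycin D, which blocks transcription, at 10 µg/mL, and were sampled at 0, 90, 180 and 360 min, with 3 libraries for each of the 8 groups. The labels name no promoter, vector or clone for either line. Nothing in them tells whether replicates are separate cultures, so a p-value here rests on a spread among replicates that may be technical only. The QuantSeq libraries hold reads from the 3' ends of polyadenylated transcripts.

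Every value is relative to the other transcripts of its library. A rise after transcription is blocked is therefore a gain in share of the remaining mRNA, and fewer cells and less RNA per cell cannot be told apart. Unless another scale is named, values are normalized counts and differences are limma estimates on log2(normalized count + 1) with their standard error (SE) and a Benjamini-Hochberg adjusted p over 12096 genes, called at 0.05. Since 1 is added to each value, log2 differences understate the change of low genes.

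RBMS3 itself lay at 174 to 358 in the 12 RBMS3 libraries and at 27.6 to 165 in the 12 LacZ libraries, without overlap. The epithelial label held for the LacZ line. The summed level of 4 epithelial markers was 6892 to 9069 there and 1511 to 2402 in the RBMS3 line, where EPCAM had a median of 2.86 against 2032 and CDH1 was at 0 in 8 of 12 libraries. The summed level of 7 mesenchymal or fibroblast markers ran the other way, 7435 to 10246 in LacZ and 37175 to 52040 in RBMS3 cells. Basal markers (KRT5, KRT14 and TP63) overlapped in their sum, 4870 to 8277 in LacZ and 1430 to 8799 in RBMS3 cells. The medians of this sum were 6888 in LacZ and 1957 in RBMS3 cells, and TP63 was at 0 in 8 of 12 RBMS3 libraries. Leukocyte markers summed to at most 79.4, and endothelial and erythroid markers to at most 8.2, in any library. The epithelial and mesenchymal sums do not overlap between the lines, and the part of the markers in the line differences below was not tested.

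One library stands apart. In replicate 2 of LacZ cells at 0 min, 14 of the 41 genes (29.3% of all genes) lay more than 1.5-fold from both other replicates on the same side, against 0 to 3 members (9.8% to 14.5% of all genes) in each of the other 23 libraries. CEBPB read 619.9, 224 and 720.5 in replicates 1, 2 and 3, ALDH18A1 read 385, 65.5 and 353, and SARS1 read 1294, 2496 and 1433. Counts of the 41 genes that use LacZ cells at 0 min are therefore given with and without this library, as are the values of main members where it changes a call.

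The DNA letters that ATF4 dimers are known to read can be shown for some of these genes. RefSeq promoter windows (GRCh38.p14, 250 bases before to 50 bases after an annotated start) were found for 32 of the 41 genes, not for LARS1, VARS1, YARS1, NUPR1, PSPH, SHMT2, GPT2, ALDH1L2 and PYCR1. The core TGATGNAA, searched on both strands (its reverse complement is TTNCATCA), occurred in the windows of 10 of these 32 genes (31.2%), against 1217 of all 27305 genes with a window (4.46%). Counted by windows it was 10 of 46 (21.7%) against 1270 of 35116 (3.62%). Below are 7 of the 10 hits, shown because the results turn on their genes, each as 30 bases read along the gene's own strand with the match in capitals.

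ASNS: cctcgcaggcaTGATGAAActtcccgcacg
GARS1: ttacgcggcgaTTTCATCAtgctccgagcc
CARS1: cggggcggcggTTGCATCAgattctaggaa
MARS1: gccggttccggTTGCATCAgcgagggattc
AARS1: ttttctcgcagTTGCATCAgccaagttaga
CHAC1: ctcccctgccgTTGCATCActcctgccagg
CEBPG: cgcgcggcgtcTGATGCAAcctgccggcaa

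The ASNS stretch lies at chr7:97872458-97872487 on the minus strand and its match begins 68 bases before the start. The GARS1 stretch is chr7:30594834-30594863 (plus strand, 33 bases before the start), CARS1 chr11:3057407-3057436 (minus, 2 bases before), MARS1 chr12:57488053-57488082 (plus, 4 bases before) and AARS1 chr16:70289675-70289704 (minus, 187 bases before). CHAC1 is at chr15:40953251-40953280 (plus, 209 bases before) and CEBPG at chr19:33374060-33374089 (plus, 42 bases before). The match begins upstream of an annotated transcript start in these 7 genes, and in CARS1 and MARS1, where it begins closest to the start, it runs across it. IARS1, NARS1 and TARS1 hold the other 3 hits. A match is a description of the letters and not of binding in these cells.

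The question of the study can be put to these genes as a change over time in each line. In RBMS3 cells, 18 of the 41 genes were higher and 3 lower after 90 min of actinomycin D than before it, where 7.99% of all genes tested were higher and 6.52% lower. Their median log2 change was 0.44, against -0.01 over all genes. In LacZ cells 1 member was higher and 3 were lower over the same 90 min, where 3.44% of all genes were higher and 2.74% lower, and the members' median was -0.01. The risers in RBMS3 cells were 9 synthetases, 6 enzymes, 1 transcription factor (ATF5) and the feedback genes STC2 and TRIB3, and the fallers were DDIT4, SESN2 and CEBPB. Without replicate 2 of LacZ cells at 0 min, the LacZ count was again 1 higher and 3 lower (4.57% of all genes in either direction). In that fit ATF4 no longer passed (-0.26, adjusted p = 0.10) and CEBPB did (-1.35, adjusted p = 0.00086).

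**Figure D1:**
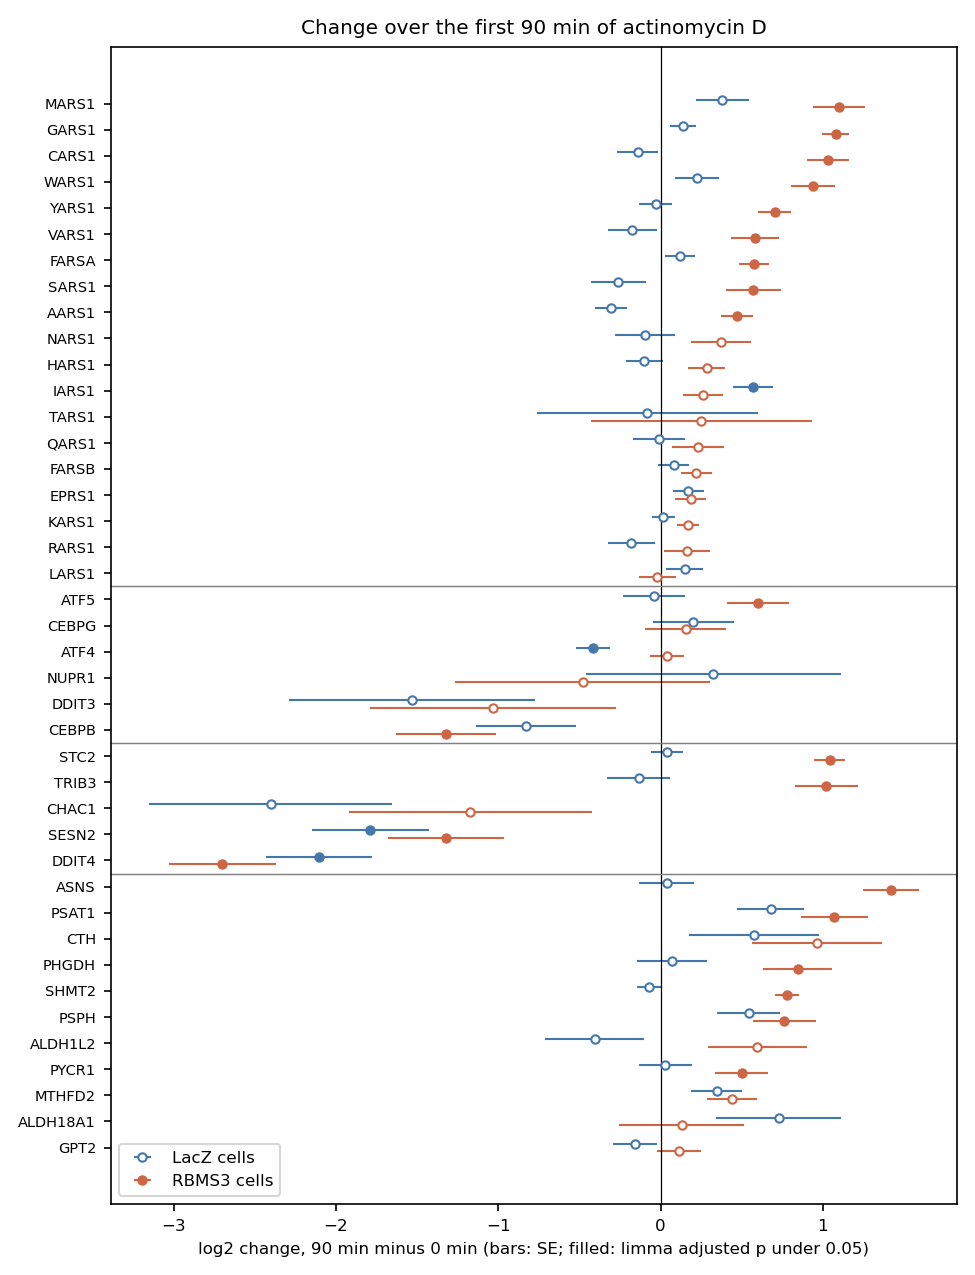
The log2 change of each of the 41 genes from 0 to 90 min of actinomycin D (x axis, limma estimate with SE bars) in LacZ (blue) and RBMS3 (orange) cells, grouped by class, with filled points for an adjusted p under 0.05. In RBMS3 cells 18 of the 19 synthetases and all 11 enzymes have estimates above 0, while most LacZ estimates for the same genes lie near 0.

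Among the synthetases, 9 of 19 rose in RBMS3 cells in the first 90 min and none fell, with 18 estimates above 0 and a median of 0.37. Over the same time in LacZ cells 1 of 19 rose and none fell, with 9 estimates above 0 and a median of -0.01. The 9 were the enzymes for methionine (MARS1), glycine (GARS1), cysteine (CARS1), tryptophan (WARS1), tyrosine (YARS1), valine (VARS1), serine (SARS1) and alanine (AARS1) and the alpha subunit of the enzyme for phenylalanine (FARSA).

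GARS1, charging glycine, read 990.2, 965 and 1002 in RBMS3 cells at 0 min and 2089, 1905 and 2266 at 90 min. The LacZ libraries read 1165, 1255 and 1034 and then 1267, 1265 and 1254. The RBMS3 libraries of the 2 times lie far apart, a 2.12-fold rise of the mean (log2 1.08 ± 0.08 SE, adjusted p = 1.1e-08), while the LacZ libraries touch (log2 0.14 ± 0.08, adjusted p = 0.35). GARS1 read 2222 to 2284 at 180 min and 2238 to 2391 at 360 min in RBMS3 cells.

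CARS1, charging cysteine, read 746, 877 and 927 in RBMS3 cells at 0 min and 1713, 1569 and 1929 at 90 min, with no overlap (log2 1.03 ± 0.13, adjusted p = 1.1e-05). The LacZ values were 807, 1015 and 880.2 at 0 min and 703, 876 and 871 at 90 min, and the groups overlap (log2 -0.14 ± 0.13, adjusted p = 0.58). At 0 min the lines overlapped for this gene, and from 90 min on every RBMS3 library was above every LacZ library of the same time.

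MARS1, charging methionine, rose from 425, 345 and 305 to 826, 688 and 780.1 in RBMS3 cells (log2 1.10 ± 0.16, adjusted p = 7.6e-05). In LacZ cells it went from 394, 325 and 459 to 533, 489.8 and 498, which did not pass (log2 0.38 ± 0.16, adjusted p = 0.17). In both lines every library at 90 min was above every library at 0 min, and the difference between the 2 changes did not pass (0.72, adjusted p = 0.078).

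WARS1, charging tryptophan, went from 344, 362 and 395 to 715, 632 and 771 in RBMS3 cells (log2 0.94 ± 0.14, adjusted p = 5.8e-05). YARS1, charging tyrosine, went from 580.0, 443 and 548 to 788, 844 and 914 (log2 0.70 ± 0.10, adjusted p = 6.3e-05). AARS1, charging alanine, went from 495, 481 and 534 to 704, 707 and 682 (log2 0.47 ± 0.10, adjusted p = 0.0021). None of these 3 overlapped between the times in RBMS3 cells, whereas in LacZ cells WARS1 (log2 0.22), YARS1 (-0.03) and AARS1 (-0.30) did not pass. Without replicate 2 at 0 min the LacZ estimates were 0.20 for GARS1, -0.05 for CARS1, 0.25 for MARS1, 0.14 for WARS1, -0.03 for YARS1 and -0.20 for AARS1, and none passed. The remaining 3 risers in RBMS3 cells were VARS1 (0.58 ± 0.15, adjusted p = 0.011), FARSA (0.57 ± 0.09, adjusted p = 0.00017) and SARS1 (0.57 ± 0.17, adjusted p = 0.027).

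The other 10 synthetases had estimates between -0.02 (LARS1) and 0.37 (NARS1) in RBMS3 cells at 90 min and none passed. EPRS1, the enzyme for both glutamate and proline, read 1482, 1366 and 1322 at 0 min and 1619, 1493 and 1627 at 90 min. IARS1, charging isoleucine, was the 1 synthetase that rose in LacZ cells (479.9, 416 and 542 to 719, 739 and 663, log2 0.57 ± 0.12, adjusted p = 0.0079), and it did not pass in RBMS3 cells (0.26 ± 0.12, adjusted p = 0.17) or in the test between the lines' changes (-0.31, adjusted p = 0.38). With libraries scaled to ribosomal protein genes the IARS1 rise in LacZ cells was lost (0.36, adjusted p = 0.064). The normalized counts of TARS1 varied too much to compare, from 1691 to 14624 over its 24 libraries. The 3 libraries of RBMS3 cells at 360 min read 2868, 14624 and 2689. The estimated reads did not vary so: these 3 libraries held 676, 657 and 656 CPM (estimated reads scaled to library size). Over the RBMS3 libraries from 90 to 360 min TARS1 held 656 to 723 CPM.

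**Figure D2:**
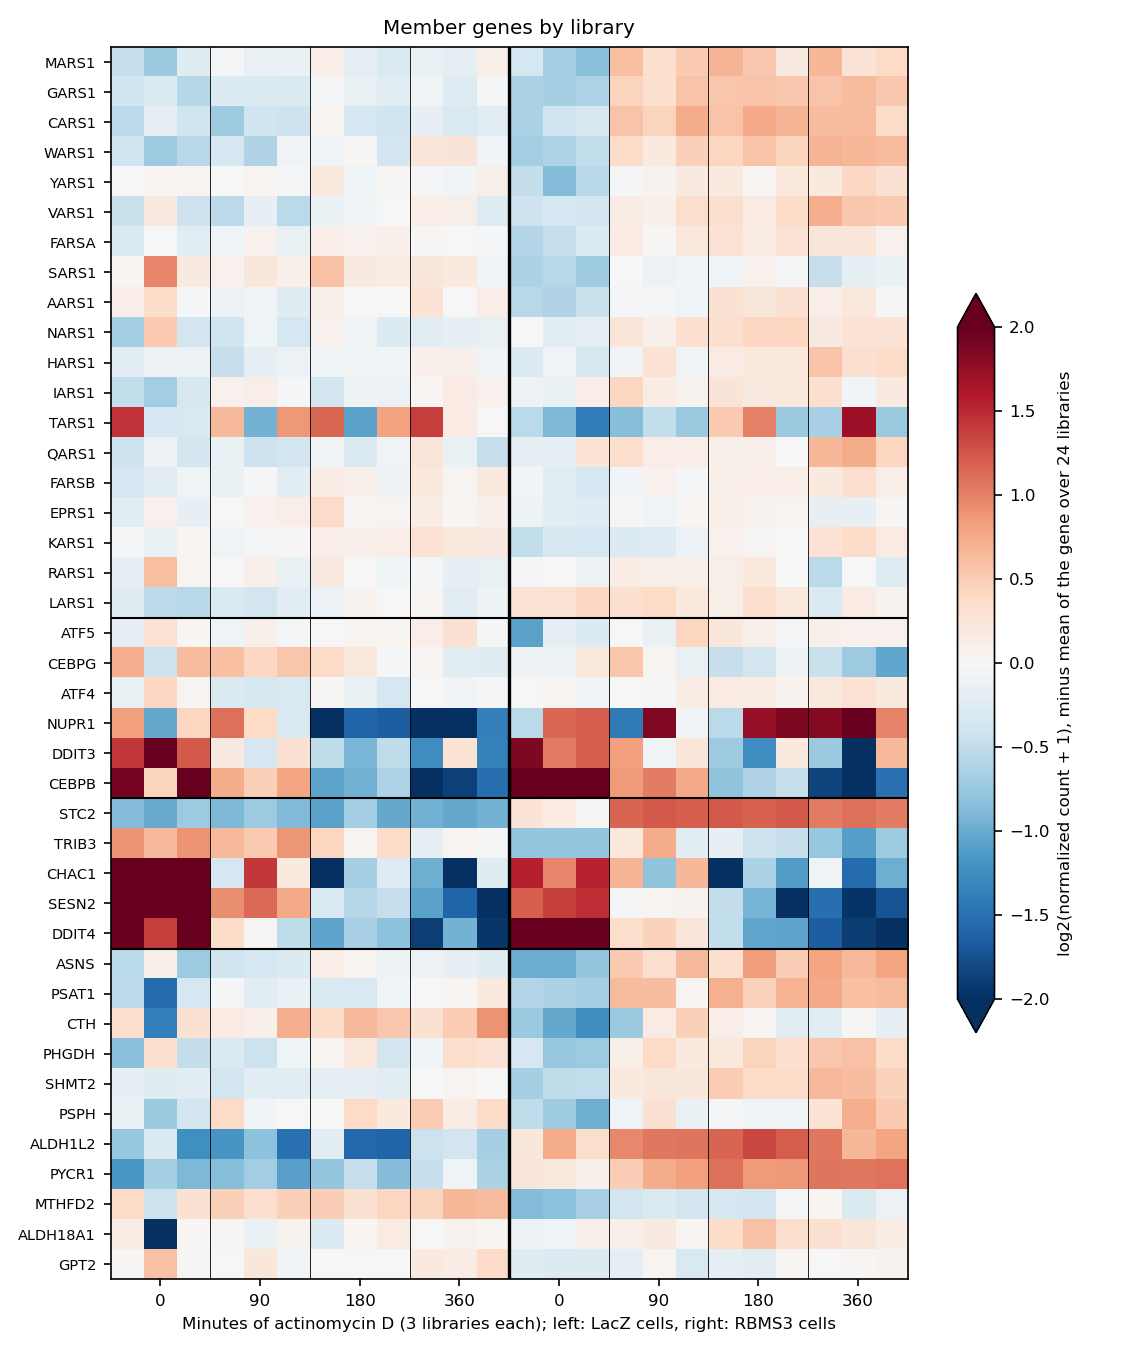
Each row is 1 of the 41 genes in the 4 classes and each column 1 of the 24 libraries (LacZ left, RBMS3 right, 3 libraries per time), with colour for log2(normalized count + 1) minus the gene's mean over all libraries. The 3 RBMS3 libraries at 0 min are below the later RBMS3 libraries for most synthetases and enzymes, and CEBPB, CHAC1, SESN2 and DDIT4 fade with time in both lines.

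The enzymes moved alike in direction. In RBMS3 cells all 11 had estimates above 0 at 90 min, with a median of 0.76, and 6 rose. In LacZ cells 8 of 11 estimates were above 0, with a median of 0.07, and none passed. ASNS, which makes asparagine from aspartate and is a classic ATF4 target, read 154, 155 and 179 in RBMS3 cells at 0 min and 443, 383 and 484 at 90 min. It then read 383, 551 and 434 at 180 min and 533, 485 and 531 at 360 min. In LacZ cells it read 212, 332 and 186 at 0 min and 233, 239.9 and 255 at 90 min. Every RBMS3 library from 90 min on was above every LacZ library of any time, and before treatment every RBMS3 library was below every LacZ library. The 2.69-fold rise in RBMS3 cells (log2 1.42 ± 0.17, adjusted p = 6.7e-06) was the 199th largest of 12096 estimates, and the LacZ change was 0.04 ± 0.17 (adjusted p = 0.94), or 0.28 without replicate 2 at 0 min (adjusted p = 0.34).

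The serine and glycine pathway starts with PHGDH, which draws carbon from glycolysis, and runs through PSAT1 and PSPH to serine, from which mitochondrial SHMT2 makes glycine and one-carbon units. SHMT2 read 698, 775 and 783 in RBMS3 cells at 0 min and 1270.4, 1294 and 1299.6 at 90 min (log2 0.78 ± 0.07, adjusted p = 1.6e-07). LacZ cells gave 986, 941 and 956 and then 857, 942 and 945 (log2 -0.07 ± 0.07, adjusted p = 0.62). The order of the lines turned over: all RBMS3 libraries were below all LacZ libraries at 0 min and above them at 90 min.

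PSAT1 read 551, 531 and 516 and then 1286, 1268 and 861 in RBMS3 cells (log2 1.07 ± 0.21, adjusted p = 0.0011). LacZ cells gave 577, 284 and 646 and then 803, 715 and 756 (log2 0.68 ± 0.21, adjusted p = 0.053), and in both lines every library at 90 min was above every library at 0 min. PHGDH (0.84 ± 0.22, adjusted p = 0.011) and PSPH (0.76 ± 0.19, adjusted p = 0.010) rose in RBMS3 cells, and in LacZ cells the estimates were 0.07 (adjusted p = 0.90) and 0.54 (adjusted p = 0.10). Without replicate 2 at 0 min the LacZ estimates were 0.31 for PSAT1 (adjusted p = 0.25), 0.39 for PHGDH (adjusted p = 0.27) and 0.38 for PSPH (adjusted p = 0.37). PYCR1, the last step of proline synthesis in mitochondria, rose by less in RBMS3 cells (0.50 ± 0.16, adjusted p = 0.043). MTHFD2, CTH, GPT2, ALDH1L2 and ALDH18A1 did not pass in either line at 90 min.

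The 6 transcription factors did not move as a group. ATF4 mRNA read 1909, 2011 and 1859 in RBMS3 cells at 0 min and 1924, 1876 and 2139 at 90 min, with overlap and no call (log2 0.04 ± 0.11, adjusted p = 0.86). In LacZ cells it read 1732, 2574 and 1996 and then 1573, 1539 and 1552 (log2 -0.42 ± 0.11, adjusted p = 0.023). That fall was lost without replicate 2 at 0 min, which was the highest of the 3, and without any 1 of the 3 libraries at 90 min (adjusted p 0.062 to 0.071). By 360 min ATF4 read 1909, 1846 and 1866 in LacZ and 2235, 2361 and 2203 in RBMS3 cells, and neither line differed by the test from its own 0 min value.

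CEBPB, a C/EBP factor whose mRNA is short-lived, fell in both lines. In RBMS3 cells it read 717, 740.1 and 812 before treatment, 295, 335 and 279 after 90 min, 92.9, 107 and 118 after 180 min and 44.6, 36.7 and 57.7 after 360 min, which leaves 6.12% of the first mean. In LacZ cells the last values were 30.7, 44.3 and 56.6, or 8.41%. The RBMS3 fall passed from 90 min on (log2 -1.32 ± 0.31, adjusted p = 0.0056) and the LacZ fall from 180 min on (log2 -2.38 ± 0.31, adjusted p = 1.9e-05).

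ATF5, a close relative of ATF4, rose at 90 min in RBMS3 cells (129.7, 241 and 226 to 271, 249 and 369.6, log2 0.60 ± 0.19, adjusted p = 0.038) with a LacZ estimate of -0.04 ± 0.19 (adjusted p = 0.94) and no call for the difference (0.64, adjusted p = 0.2). DDIT3, which encodes the stress factor CHOP, was low throughout, at 28.3 to 60.4 before treatment and 0 to 21.6 at 360 min. It had fallen in both lines by 360 min (LacZ -2.35 ± 0.76, adjusted p = 0.024; RBMS3 -2.67 ± 0.76, adjusted p = 0.0084). These calls rest on few reads: the LacZ one was lost without LacZ replicate 1 or 3 at 360 min or replicate 2 at 0 min (adjusted p 0.081, 0.092 and 0.084), and the RBMS3 one without replicate 2 at 360 min, the library at 0 (-1.41, adjusted p = 0.067). CEBPG, a C/EBP partner, was lower at 360 min in RBMS3 cells (-0.74 ± 0.25, adjusted p = 0.023). NUPR1, a small stress-induced chromatin protein, went from 25.7, 6.44 and 19.3 to 1.71, 2.42 and 4.84 over 360 min in LacZ cells and from 9.45, 32.5 and 33.5 to 52.9, 76.8 and 29.1 in RBMS3 cells, and at these low counts neither change passed (LacZ adjusted p = 0.054 with all libraries and 0.029 without replicate 2 at 0 min).

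The feedback and signalling genes split into risers and rapid fallers. STC2, a secreted glycoprotein, read 1008, 937 and 852 in RBMS3 cells at 0 min and 1877, 1962 and 1907 at 90 min (log2 1.04 ± 0.10, adjusted p = 2.3e-07). The LacZ libraries read 456, 413 and 502 and then 449, 504 and 453 (log2 0.04 ± 0.10, adjusted p = 0.87). It read 1694 to 1797 in RBMS3 cells at 360 min. TRIB3, a pseudokinase that feeds back on ATF4, read 105 in each RBMS3 library at 0 min and 208, 302 and 156 at 90 min (log2 1.02 ± 0.19, adjusted p = 0.00097). It did not stay high: it read 161, 135 and 130.1 at 180 min and 106, 83.8 and 110.3 at 360 min, 95.5% of the first mean. In LacZ cells TRIB3 went from 337, 282 and 338 to 159, 187 and 177 at 360 min, a fall that passed (-0.87 ± 0.19, adjusted p = 0.002).

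DDIT4, an inhibitor of mTORC1, had the lowest estimate of the 41 genes at 90 min in RBMS3 cells. The RBMS3 libraries read 996, 1048 and 1056 before actinomycin D, then 158, 170.4 and 147, and after 360 min 38.9, 32.5 and 16.5 (2.83% of the first mean). LacZ cells gave 655, 325 and 658, then 159, 125 and 86.4, and at 360 min 32.7, 63.5 and 31.2 (7.78%). The 90 min fall passed in both lines (RBMS3 -2.70 ± 0.33, adjusted p = 7.5e-06; LacZ -2.10 ± 0.33, adjusted p = 4e-04). SESN2, a leucine sensor upstream of mTORC1, also fell in both lines by 90 min (RBMS3 -1.32 ± 0.36, adjusted p = 0.016; LacZ -1.79 ± 0.36, adjusted p = 0.0046), to 10.95% in RBMS3 and 4.65% in LacZ cells at 360 min. CHAC1, which degrades glutathione, read 76.2, 104 and 76.1 in LacZ and 34.3, 22.6 and 33.9 in RBMS3 cells at 0 min and at most 10.4 in any library at 360 min. Its fall passed at 180 min in both lines (LacZ -4.33 ± 0.75, adjusted p = 0.00046; RBMS3 -2.68 ± 0.75, adjusted p = 0.011). The RBMS3 call was lost without replicate 1 at 180 min (-2.22, adjusted p = 0.061), and that of SESN2 at 90 min without RBMS3 replicate 3 at 0 min (-1.26, adjusted p = 0.055) or replicate 1 at 90 min (-1.29, adjusted p = 0.053).

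**Figure D3:**
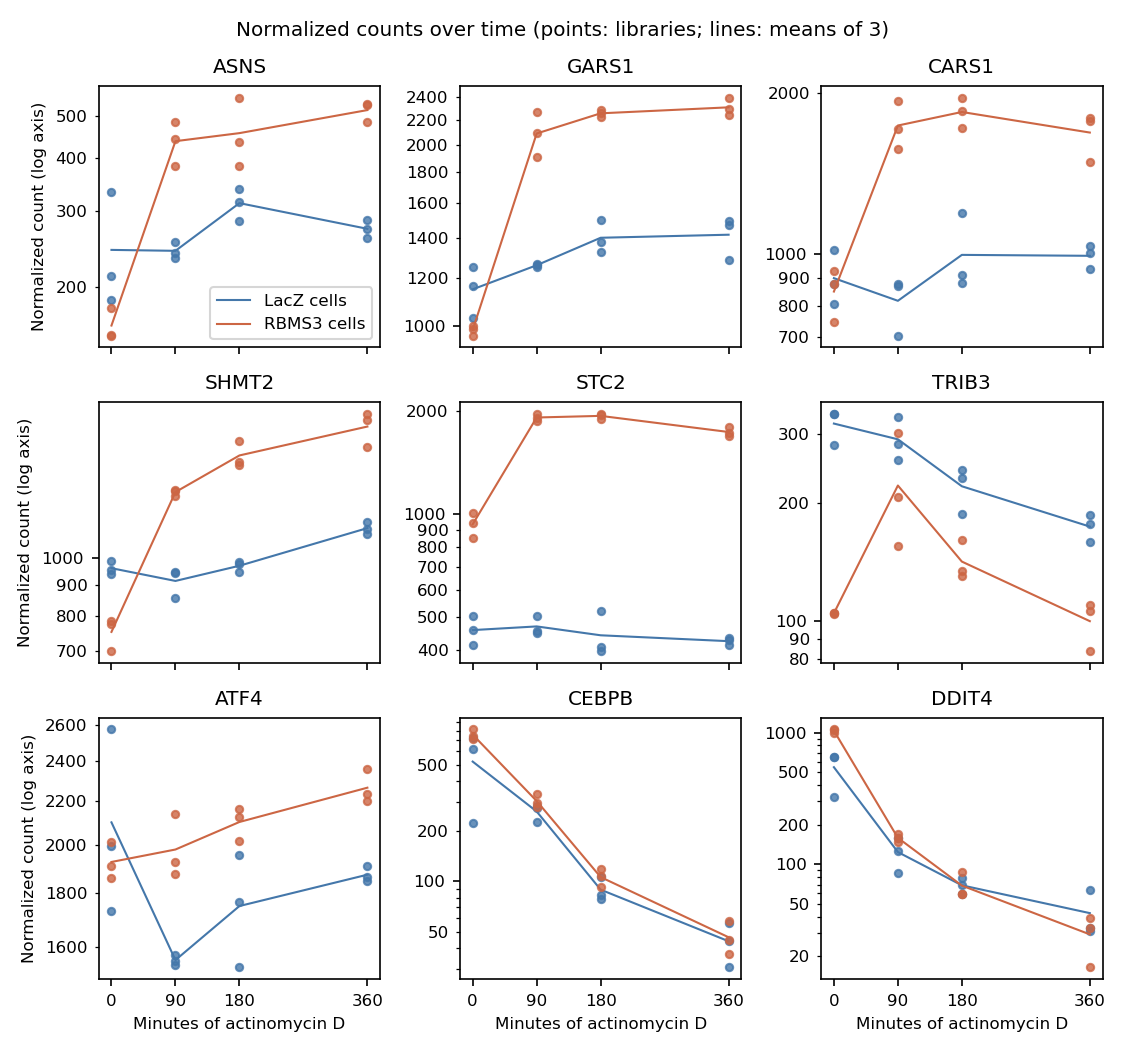
Normalized counts (log y axis, each panel with its own range) of 9 of the genes against minutes of actinomycin D, with 1 point per library and lines through the means of 3. For ASNS, GARS1, CARS1, SHMT2 and STC2 the RBMS3 line steps up between 0 and 90 min. From 90 to 360 min it changes by less, upward for ASNS, GARS1 and SHMT2 and slightly downward for CARS1 and STC2. TRIB3 returns to 100.1 at 360 min in RBMS3 cells. CEBPB and DDIT4 fall in both lines, and for DDIT4 the RBMS3 line starts above the LacZ line and ends below it.

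At the later times the counts were as follows, and each comparison uses the same 0 min libraries as the 90 min one. In RBMS3 cells 23 members were higher and 4 lower at 180 min (13.5% and 12.4% of all genes), and 21 were higher and 7 lower at 360 min (19.1% and 18.6%). The largest rises at 360 min were ASNS (1.66 ± 0.17, adjusted p = 1.8e-07), PSAT1 (1.30 ± 0.21, adjusted p = 3.9e-05), WARS1 (1.25 ± 0.14, adjusted p = 3.6e-07), PSPH (1.24 ± 0.19, adjusted p = 3.5e-05), GARS1 (1.23 ± 0.08, adjusted p = 3.9e-10), SHMT2 (1.14 ± 0.07, adjusted p = 2.1e-10), PHGDH (1.10 ± 0.22, adjusted p = 0.00039) and MARS1 (1.06 ± 0.16, adjusted p = 2.6e-05). LARS1, charging leucine, was the 1 synthetase that fell (1657, 1653 and 1800.2 to 1109, 1527 and 1427, log2 -0.34 ± 0.11, adjusted p = 0.021). At 180 min the rises of at least 1 on the log2 scale were ASNS (1.47), PSAT1 (1.25), GARS1 (1.19), CARS1 (1.12), MARS1 (1.08), WARS1 (1.07) and STC2 (1.06). The falls of that size were DDIT4 (-3.91 at 180 and -5.18 at 360 min), CEBPB (-2.83 and -4.02), SESN2 (-2.54 and -3.09) and CHAC1 (-2.68 and -2.21), with DDIT3 at 360 min.

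In LacZ cells 5 members were higher and 4 lower at 180 min (7.75% and 6.87% of all genes), and 11 were higher and 6 lower at 360 min (14.9% and 13.6%). The risers at 360 min included PSAT1 (0.88 ± 0.21, adjusted p = 0.0027), PSPH (0.77 ± 0.19, adjusted p = 0.0053) and WARS1 (0.71 ± 0.14, adjusted p = 0.00052). The fallers at 180 min were CHAC1 (-4.33), SESN2 (-3.17), DDIT4 (-2.90) and CEBPB (-2.38), and those at 360 min were SESN2 (-4.40), CHAC1 (-3.92), DDIT4 (-3.66), CEBPB (-3.42), DDIT3 (-2.35) and TRIB3 (-0.87). Without replicate 2 at 0 min the counts were 7 higher and 5 lower at 180 min (13.9% of all genes in either direction). At 360 min they were 15 higher and 7 lower (24.9%). In that fit PSAT1 was 0.52 at 360 min (adjusted p = 0.008), and PHGDH (0.84, adjusted p = 0.0015) and ASNS (0.45, adjusted p = 0.025) passed.

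The direction of the LacZ rises depends on the scale. With each library scaled to its ribosomal protein genes, the median of all genes moved to -0.49 in LacZ and -0.39 in RBMS3 cells for 360 against 0 min, and to 0.006 for 90 against 0 min in RBMS3 cells. On that scale LacZ cells had 0 members higher and 7 lower at 90 min (0.843% and 7.73% of all genes), 0 higher and 14 lower at 180 min (0.909% and 19.8%) and 0 higher and 23 lower at 360 min (1.17% and 37.8%). RBMS3 cells had 19 higher and 3 lower at 90 min (8.71% and 6.27%), 15 higher and 5 lower at 180 min (7.44% and 16.8%) and 16 higher and 9 lower at 360 min (6.39% and 31.9%). More members were higher than lower in RBMS3 cells at each time on this scale, and in LacZ cells no member was higher at any of the 3 times.

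Between 90 and 360 min, with actinomycin D present at both times, fewer members passed. In RBMS3 cells 3 were higher and 5 lower (7.62% and 8.35% of all genes): KARS1, HARS1 and SHMT2 against CEBPB, DDIT4, SESN2, TRIB3 and CEBPG. In LacZ cells 3 were higher and 4 lower (3.38% and 5.12%): KARS1, WARS1 and SHMT2 against CEBPB, SESN2, DDIT4 and TRIB3. Scaled to ribosomal protein genes, the splits were 0 higher and 14 lower in RBMS3 cells (0.306% and 23.9% of all genes) and 0 higher and 9 lower in LacZ cells (0.273% and 14.3%). ASNS had an estimate of 0.25 ± 0.17 in RBMS3 cells over this interval and did not pass (adjusted p = 0.39).

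The same data can be read as a difference between the lines at each time. Before treatment, 6 members were higher and 13 lower in RBMS3 than in LacZ cells, where 18.6% of all genes were higher and 18.9% lower, and the members' median was -0.20 against 0.007 over all genes. At 90 min 16 were higher and 2 lower (14.9% and 15% of all genes, median 0.19). At 180 min 12 were higher and 2 lower (16.2% and 16.8%, median 0.24), and at 360 min 16 were higher and 2 lower (17.5% and 17.7%, median 0.20). The balance of the members was thus on the low side in untreated RBMS3 cells and on the high side at each later time. The low side at 0 min was weaker without replicate 2 of LacZ cells, with 6 higher, 10 lower and a median of -0.12. In that fit 34.9% of all genes passed in either direction.

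**Figure D4:**
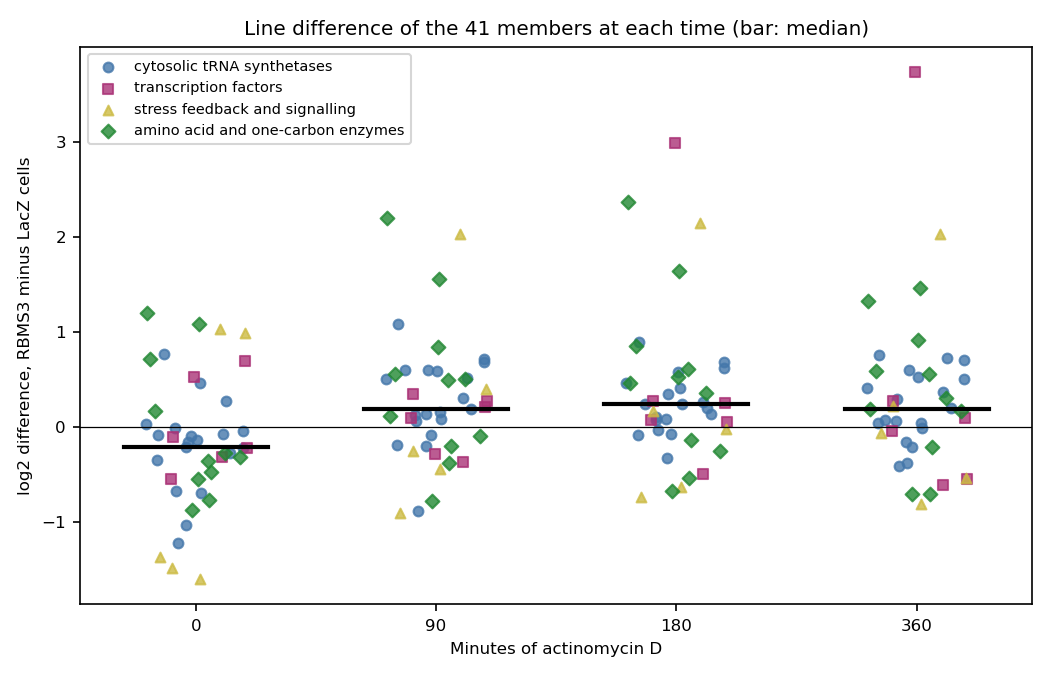
Log2 difference between RBMS3 and LacZ cells (y axis, positive where RBMS3 is higher) for the 41 genes at each time of actinomycin D, with 1 point per gene, colour and shape for class, and a bar at the median. The median is -0.20 at 0 min and 0.19 to 0.24 at the later times, and the 2 highest points, at 180 and 360 min, are NUPR1.

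At 0 min the lower members were led by TRIB3 (-1.59 ± 0.19, adjusted p = 1.3e-06), SESN2 (-1.37 ± 0.36, adjusted p = 0.0047), SARS1 (-1.03 ± 0.17, adjusted p = 5.9e-05), MTHFD2 (-0.87 ± 0.16, adjusted p = 0.00014) and AARS1 (-0.69 ± 0.10, adjusted p = 9.2e-06). The higher ones were ALDH1L2 (1.20 ± 0.31, adjusted p = 0.0039), PYCR1 (1.09 ± 0.16, adjusted p = 1.8e-05), STC2 (1.03 ± 0.10, adjusted p = 4.3e-08), DDIT4 (0.99 ± 0.33, adjusted p = 0.021), LARS1 (0.77 ± 0.11, adjusted p = 1.5e-05) and IARS1 (0.46 ± 0.12, adjusted p = 0.0051). Without replicate 2 of LacZ cells 6 were higher and 10 lower. ASNS (-0.54 with all libraries, -0.29 and adjusted p = 0.12 without it), GARS1 (-0.155), FARSA (-0.18), ATF5 (-0.43), GPT2 (-0.28) and DDIT4 (0.65) no longer passed, and CTH (-1.32), CEBPG (-0.68) and NARS1 (0.38) did. Scaled to ribosomal protein genes 4 were higher and 25 lower (11.1% and 31.6% of all genes), with the median of all genes at -0.295.

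Some members kept their side through all 4 times. STC2, PYCR1 and ALDH1L2, the mitochondrial enzyme that oxidizes formyl-tetrahydrofolate, were higher in RBMS3 cells at each time. STC2 was 2.04-fold higher at 0 min and 4.09-fold higher at 90 min by the ratio of means, and PYCR1, at 114, 163 and 138 in LacZ and 306, 295 and 276 in RBMS3 cells at 0 min, was 2.11-fold and 2.73-fold higher at 0 and 360 min. ALDH1L2, at 46.6, 64.8 and 33.3 in LacZ and 92.8, 134 and 101 in RBMS3 cells at 0 min, was 4.62-fold higher at 90 min and 2.54-fold higher at 360 min. MTHFD2, a mitochondrial folate enzyme, was lower at each time (log2 -0.87, -0.77, -0.67 and -0.70 in order of time). For this gene the log2 factor between table values and estimated reads was 3.29 to 3.59 in LacZ libraries at 0 min. It was 2.59 to 3.16 in RBMS3 libraries at 90 to 360 min. For ATF4 it was at most 0.002. The summed reads of MTHFD2 thus lie far below its normalized counts and do not check them. The part of this factor in the line difference of MTHFD2 was not tested.

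Other members changed sides. GARS1, ASNS and SHMT2 were lower at 0 min and higher at 90 min in RBMS3 cells, of which SHMT2 alone kept the 0 min call without replicate 2 of LacZ cells (-0.37, adjusted p = 0.00054). CARS1 was no different by the test at 0 min (-0.08 ± 0.13, adjusted p = 0.66) and 1.09 ± 0.13 higher at 90 min (adjusted p = 1.1e-06). ATF4 was higher in RBMS3 cells at 90 min (0.35 ± 0.11, adjusted p = 0.017), though not with libraries scaled to ribosomal protein genes (0.27, adjusted p = 0.066) or without replicate 3 of RBMS3 cells at 90 min (0.29, adjusted p = 0.079). NUPR1 was 12.3-fold higher at 180 min (log2 2.99 ± 0.78, adjusted p = 0.0055) and 17.7-fold higher at 360 min (log2 3.73 ± 0.78, adjusted p = 0.00082), from 1.43 to 4.84 in LacZ and 9.35 to 76.8 in RBMS3 libraries. These table values rest on few reads and do not follow them: the RBMS3 libraries at 180 min held 1.38, 1.42 and 2.39 CPM (estimated reads scaled to library size) for NUPR1 where the table has 9.35, 49.7 and 54.3. CARS1 had the largest difference of the synthetases that passed at 360 min (0.76 ± 0.13, adjusted p = 8.4e-05), and TRIB3, with MTHFD2, was on the low side at 180 min (-0.63 ± 0.19, adjusted p = 0.015) and at 360 min (-0.80 ± 0.19, adjusted p = 0.0027). At 360 min the split on the ribosomal protein scale was 10 higher and 6 lower (12.5% and 23.6% of all genes).

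Whether the lines changed differently was tested directly, as the RBMS3 change minus the LacZ change. From 0 to 90 min 12 members had a higher change in RBMS3 cells and none a lower one, where 2.71% of all genes were higher and 2.52% lower, and the members' median difference was 0.46 against -0.02 over all genes. They were 8 synthetases (CARS1, GARS1, SARS1, AARS1, VARS1, YARS1, WARS1 and FARSA), 2 enzymes (ASNS and SHMT2), TRIB3 and STC2. The largest was ASNS (1.38 ± 0.24, adjusted p = 0.0014), and the smallest adjusted p was that of SHMT2 (0.85 ± 0.10, adjusted p = 2.6e-05). For ATF4 the difference was 0.45 ± 0.15 and did not pass (adjusted p = 0.091).

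Without replicate 2 of LacZ cells at 0 min, 11 members passed in the same direction (6.1% of all genes in either direction). ASNS (1.14, adjusted p = 9e-04), GARS1 (0.88, adjusted p = 3e-05), CARS1 (1.08, adjusted p = 0.00079), SHMT2 (0.86, adjusted p = 1.5e-05), STC2 (1.07, adjusted p = 4.1e-05), TRIB3 (1.24, adjusted p = 0.011), YARS1, AARS1 and WARS1 remained. SARS1 (0.54, adjusted p = 0.054), VARS1 (0.55, adjusted p = 0.071) and FARSA (0.37, adjusted p = 0.074) were lost, and MARS1 (0.85, adjusted p = 0.028) and PSAT1 (0.76, adjusted p = 0.014) were added.

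From 0 to 360 min, which shares the 0 min libraries, 10 members had a higher and 2 a lower change in RBMS3 cells (4.32% and 3.46% of all genes). Without replicate 2 of LacZ cells at 0 min 12 had a higher and 1 a lower change (9.08% of all genes in either direction). In that fit VARS1 (0.55, adjusted p = 0.055) and FARSA (0.38, adjusted p just above 0.05) were lost. MARS1 (0.78, adjusted p = 0.034), WARS1 (0.63, adjusted p = 0.046), NUPR1 (3.75, adjusted p = 0.045) and PSAT1 (0.79, adjusted p = 0.0084) were added. LARS1 (-0.69 ± 0.16, adjusted p = 0.0094) and DDIT4 (-1.52 ± 0.46, adjusted p = 0.048) were the lower ones, and DDIT4 was lost without any of 8 libraries, replicate 2 of LacZ cells at 0 min among them (-1.18, adjusted p = 0.11). Scaled to ribosomal protein genes the split was 16 higher and 1 lower (7.08% and 2.31%). From 90 to 360 min none of the 41 differed in change between the lines by limma, as 0% of all genes were higher and 0.00827% lower.

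The reads bear on part of this. In the 12 libraries whose transcript files could be used (LacZ at 0 min and RBMS3 at 90, 180 and 360 min), the normalized count of a gene was divided by its summed estimated reads. Had each library been scaled by its size alone, this ratio would be 1 factor per library. It instead ranged over libraries by a median of 1.20-fold for 33 members and 1.25-fold for 8274 genes. It was near constant for ATF4, TRIB3, PSAT1 and SHMT2, ranged 1.07-fold for ASNS, 1.25-fold for CARS1, 1.48-fold for STC2, 1.52-fold for GARS1 and 1.65-fold for MARS1, and reached 1.91-fold for LARS1, 2.00-fold for MTHFD2 and 5.70-fold for TARS1. For the 0 to 90 min change in RBMS3 cells the part of this factor was not tested, as reads of RBMS3 cells at 0 min are not used here. For RBMS3 cells at 360 against 90 min, edgeR on the reads called 6 of 40 members higher and 8 lower (11.5% and 12.6% of the genes it tested). The lower ones included CEBPB (-2.75, adjusted p = 5.8e-08), DDIT4 (-2.47, adjusted p = 7e-06), SESN2 (-1.88, adjusted p = 0.0077), TRIB3 (-1.19, adjusted p = 0.00068) and CEBPG. LARS1 (-0.43, adjusted p = 0.023), RARS1 (-0.31, adjusted p = 0.00052) and STC2 (-0.18, adjusted p = 0.038) were lower by edgeR and not called by limma. The higher ones were KARS1 and SHMT2, also called by limma, and GARS1 (0.34, adjusted p = 0.04), WARS1, YARS1 and PYCR1, which were not. HARS1, called higher from the table over this interval, is not checked by the reads, of which it held 1.38 to 10.6 CPM in the 9 RBMS3 libraries (edgeR -1.38, adjusted p = 0.11).

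The same changes can be set out by the promoter core. Of the 10 with a match 5 were higher and 0 lower at 90 min in RBMS3 cells (median 0.42), and of the 22 with a window and no match 8 were higher and 3 lower (median 0.26). In LacZ cells the medians were -0.02 and 0.003. The shares of all genes higher and lower at 90 min are those given with the counts above. Of the 10 with a match 7 are synthetases (of 16 synthetases with a window). The part of class in this split was not tested. ASNS, GARS1, CARS1, MARS1 and AARS1 are the 5 risers whose sequences are printed above, while CHAC1 (-1.17) and CEBPG (0.15), also printed, did not pass.

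Other genes of the pathway give the setting. At 90 min 7.99% of all genes were higher and 6.52% lower in RBMS3 cells, against 3.44% and 2.74% in LacZ cells. Of 10 tested amino acid transporters of the ATF4 response, 6 rose and 1 fell in RBMS3 cells at 90 min. In LacZ cells 2 rose, SLC7A11 and SLC7A1 (0.36, adjusted p 0.05 after rounding), and 1 fell. The glycine transporter SLC6A9 (1.49), the cystine transporter SLC7A11 (1.39) and the large neutral amino acid transporter SLC7A5 (1.02) rose in RBMS3 cells. SLC38A2 fell in RBMS3 cells (-1.17, adjusted p = 3.1e-06) and in LacZ cells (-0.64, adjusted p = 0.0057). Its estimates for 360 against 0 min were -2.98 in RBMS3 and -2.65 in LacZ cells. SLC7A11 read 192, 141 and 178 in RBMS3 cells at 0 min and 499, 429 and 414 at 90 min, and its LacZ rise (0.62, adjusted p = 0.025) was lost without replicate 2 at 0 min (0.44, adjusted p = 0.13). For SLC7A5 the change itself differed between the lines (0.74). Its level stayed lower in RBMS3 than in LacZ cells, at 1491, 1667 and 1771 against 7924, 6140 and 8700 at 0 min.

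Of 17 genes for eIF2, its kinases, its phosphatase and its exchange factor eIF2B, 3 rose and 2 fell in RBMS3 cells at 90 min. The fallers were the phosphatase subunits PPP1R15B (-1.23) and PPP1R15A (-0.98), and the eIF2 alpha subunit EIF2S1 (0.76) had the largest rise. In LacZ cells 1 rose and 1 fell, PPP1R15A (-1.26, adjusted p = 0.00053), whose change did not differ by the test between the lines (0.285, adjusted p = 0.66). That difference did not pass for PPP1R15B (-0.88, adjusted p = 0.13) or EIF2S1 (0.46, adjusted p = 0.14) either. EIF2S2, a further eIF2 gene, rose in RBMS3 cells (0.615, adjusted p = 5.9e-06). Its LacZ estimate of 0.12 did not pass (adjusted p = 0.38). Among 16 tested further ATF4 target genes 3 rose and 1 fell in RBMS3 cells at 90 min. HMOX1 (1.00), XPOT (0.72) and EIF4EBP1 (0.60) rose, and their LacZ estimates of -0.63, 0.29 and 0.17 did not pass. VEGFA fell (-1.44, adjusted p = 0.017), and its LacZ estimate of -1.25 did not pass (adjusted p = 0.062). None of 15 mitochondrial tRNA synthetases and none of 17 other serine, one-carbon, proline and glutamate enzymes passed at 90 min in RBMS3 cells, and of 5 genes for the synthetase complex and the remaining cytosolic synthetases 1 rose, AIMP2 (0.53). In LacZ cells none of these 15 mitochondrial synthetases and 2 of these 17 enzymes passed: GLUD1, glutamate dehydrogenase (0.49, adjusted p = 0.0093), and AHCY, which splits adenosylhomocysteine (0.38, adjusted p = 0.045), both rose. Their change was lower in RBMS3 than in LacZ cells (GLUD1 -0.60, adjusted p = 0.026; AHCY -0.68, adjusted p = 0.012), the direction opposite to that of the 12 members. Without replicate 2 at 0 min the AHCY rise in LacZ cells did not pass (0.27, adjusted p = 0.19), while both differences did (GLUD1 -0.575, adjusted p = 0.035; AHCY -0.57, adjusted p = 0.019).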

How the data were processed

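Polyadenylated RNA of 24 libraries (HMLE cells with LacZ or RBMS3, 4 times of actinomycin D, 3 libraries each) was read from the 3' end by QuantSeq, per the labels' protocols. Without roles or order, the submitters' processing notes list the tools DESeq2 1.32.0, Salmon 1.4.0 and Trim Galore 0.6.6. The build and annotation were not given in the sources used here. A gene table that the authors deposited holds a normalized signal, called the normalized count here, for 38849 genes, whose sum was 6638187 to 8080428 per library with 14193 to 15697 genes above 0.

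Also deposited were estimated counts for 231288 transcripts per library, per the file headers. Names and attached samples disagreed for 12 of these files, which were not used. The other 12 held 4426445 to 9856338 estimated reads, summed over GENCODE 29 gene names (88.4% of transcripts, 95.22% to 95.71% of reads) and rounded. AARS1 got no reads and HARS1 few this way. MTHFD2 got few for its normalized counts, 13.7 to 23.6 CPM in the RBMS3 libraries used.

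The main test was limma 3.58.1 in R 4.3.3, with a trended and non-robust prior, on log2(normalized count + 1), 8 group means in 1 fit, for the 12096 genes with a mean of at least 10. Fits were tested on simulated data. edgeR 4.0.16 (quasi-likelihood test) and DESeq2 1.42.0 were run on the summed estimated counts for RBMS3 cells at 360 against 90 min. Alternatives were other scalings, pseudocounts and filters, fits of the compared groups alone, a replicate block and each library left out. The members and gene lists were chosen with earlier results of these data known. Named were ATF4, members past the test by at least 1 on the log2 scale, the extremes of each class, and at most 3 genes per comparison of the other lists. Other genes named and other values shown in full were chosen after they were seen.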

Additional observations from a re-analysis of the deposited data

Results flagged for a closer look

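For 12 genes the change from 0 to 90 min of actinomycin D differed between the lines by the test of that difference itself (limma, adjusted p under 0.05 over 12096 genes, 3 libraries per group). The values are RBMS3 minus LacZ changes on the log2 scale. Synthetases were CARS1 with 1.17, GARS1 with 0.94, SARS1 with 0.83, AARS1 with 0.78, VARS1 with 0.76, YARS1 with 0.73, WARS1 with 0.72 and FARSA with 0.46. The enzymes ASNS with 1.38 and SHMT2 with 0.85, and the feedback genes TRIB3 with 1.16 and STC2 with 1.00, complete the 12. SARS1, VARS1 and FARSA depend on replicate 2 of LacZ cells at 0 min, without which their values were 0.54, 0.55 and 0.37.

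For 12 genes the change from 0 to 360 min differed by the same test, which shares its 0 min libraries with the first. The values were 1.46 for ASNS, 1.00 for STC2, 0.96 for YARS1, 0.92 for GARS1, 0.92 for SHMT2, 0.84 for CARS1, 0.76 for VARS1, 0.68 for AARS1, 0.47 for FARSA and 0.38 for KARS1. LARS1, with -0.69, and DDIT4, with -1.52, had the lower change in RBMS3 cells.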

How the results depend on the processing

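Counts are members past the adjusted p, of 41, in either direction. With libraries scaled to ribosomal protein genes they moved from 19 to 29 for the line difference at 0 min, from 4 to 7 for LacZ 90 against 0 min, from 9 to 14 for LacZ 180 against 0 min and from 8 to 14 for RBMS3 360 against 90 min. On this scale the calls over all 12096 genes were, in that order, 1341 higher and 3828 lower, 102 and 935, 110 and 2395, and 37 and 2893. For most other settings no share of all genes is given here. For those, a move of the members cannot be told apart from a move of all genes. Fitting only the compared groups gave 12 for the line difference at 0 min, 1, 4 and 8 for LacZ 90, 180 and 360 against 0 min, and 7 and 6 for the line difference in change from 0 to 90 and 0 to 360 min. Scaling to the same total gave 4 for LacZ 360 against 90 min. edgeR and DESeq2 on reads each gave 14 for RBMS3 360 against 90 min.

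Leaving out 1 library at a time gave 5 to 12 for LacZ 180 against 0 min (5 without LacZ replicate 2 at 180 min) and 3 to 7 for LacZ 360 against 90 min (3 without LacZ replicate 1 at 90 min, 4 without LacZ replicate 1 or 2 at 360 min). The ranges were 15 to 21 for the line difference at 0 min, 17 to 20 for RBMS3 90 against 0 min, 25 to 28 for RBMS3 360 against 0 min, 8 to 13 for the difference in change from 0 to 90 min and 8 to 14 for that from 0 to 360 min. The DDIT4 difference in change from 0 to 360 min was lost without any of 8 libraries (-1.16 to -1.67, adjusted p 0.051 to 0.13): LacZ replicate 2 at 0 min, LacZ replicates 1 and 2 at 360 min, each of the 3 RBMS3 libraries at 0 min and RBMS3 replicates 2 and 3 at 360 min. CHAC1 at 360 against 0 min in RBMS3 cells was lost without RBMS3 replicate 1 or 3 at 0 min or 2 or 3 at 360 min (-1.88 to -2.16, adjusted p 0.060 to 0.096). None of 79 member values reversed its sign under any setting run. The cause of these moves was not tested.

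Replicate numbers were not taken as pairs: over 12 comparisons the correlations of same-numbered deviations were -0.082 to 0.116, and the highest was replicate 2 in LacZ 90 against 0 min (0.07 and 0.015 for replicates 1 and 3). In no comparison did all 3 correlate best with their own number. With the replicate number as a block the count was 22 (21 without it) for RBMS3 90 against 0 min, 12 for the difference in change from 0 to 90 min and 7 for LacZ 180 against 0 min, and no named member lost its call. Depth limits DDIT3, NUPR1, CHAC1 and CTH, which had low counts.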
